A study of Mus musculus with 4 samples.

Results

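The 9 genes described here belong to purinergic signalling and nucleotide metabolism and were measured in mouse peritoneal macrophages, among the 16403 genes listed in at least 1 of 4 RNA-sequencing libraries. The 9 genes were taken by symbol and comprise the ATP-gated channels P2rx4 and P2rx7, the G protein-coupled nucleotide receptors P2ry2 and P2ry6, the adenosine receptors Adora2a and Adora2b, and the enzymes Entpd1, Ada and Cd38. All 9 were listed in every library. Macrophages came from C57BL/6 mice, 6 to 8 weeks old, 4 days after intraperitoneal 4% thioglycolate. They adhered for 4 h and were then kept in medium with 0.5% FBS. The 4 groups compared were wild-type nontreat, wild-type IL-4 (20 ng/mL for 6 h), TIF1a-KO nontreat and TIF1a-KO IL-4. In the knockout, floxed Trim24 (TIF1a) was deleted by a Cre recombinase under the lysozyme M promoter, so that deletion is limited to the myeloid lineage. Every group held 1 library, and the number of mice behind a library is not given in the sources used here. No difference below therefore has a replicate check, and each test on reads compares 2 libraries rather than 2 conditions.

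Extracellular ATP and UDP released from stressed or dying cells act on P2X and P2Y receptors of macrophages. P2X receptors are cation channels opened by ATP, and P2Y receptors couple nucleotides to G proteins. The ectonucleotidase CD39, encoded by Entpd1, trims ATP and ADP to AMP, the ecto-5'-nucleotidase CD73 (Nt5e) then yields adenosine, and adenosine acts through receptors such as those encoded by Adora2a and Adora2b, which raise cyclic AMP. Adenosine deaminase (Ada) ends this signal by converting adenosine to inosine. CD38 is an ectoenzyme that breaks down NAD and can feed the same pool of extracellular adenosine.

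The libraries held 11026033 to 11250099 expected reads, and levels are given in FPKM, a read count scaled to transcript length and library total. Trim24 itself measured 2.55 FPKM in the wild-type nontreat library and 1.48 FPKM in wild-type IL-4, against 0.06 and 0.14 FPKM in the corresponding knockout libraries. All 6 macrophage markers examined were listed in every library. The neutrophil markers Ly6g, Retnlg and S100a9 and the eosinophil markers Epx and Ear6 were listed in none. From the same lists, S100a8 (5.15 to 8.76 FPKM) and Siglecf (0.95 to 2.04 FPKM) were listed in every library. Of 5 mast cell markers 3 were listed in every library. Among them Cma1 was at 0.76 and 1.08 FPKM in wild-type cells before and after IL-4, and at 3.13 and 1.10 FPKM in TIF1a-KO cells. In the same order Cpa3 was at 1.19 and 0.92 FPKM and at 2.51 and 2.26 FPKM. Tpsb2 was at 2.54 and 1.58 FPKM and at 3.13 and 1.95 FPKM, so the 3 markers did not share 1 pattern. Lyz2, whose promoter drives the Cre, was at 11289 and 10811 FPKM in wild-type cells before and after IL-4, compared with 5193 and 4761 FPKM in TIF1a-KO cells. The other 5 macrophage markers summed to 3544 and 3921 FPKM in wild-type cells and to 3692 and 3521 FPKM in TIF1a-KO cells. A gene was called in a pair of libraries when it differed by more than 1.5-fold on the log2(FPKM + 0.1) scale and had an adjusted p under 0.05 by Fisher's exact test on rounded expected reads, with Benjamini-Hochberg adjustment over all genes tested. Standard errors and intervals cover counting error only. Where both libraries of a genotype or treatment are said to lie above both others, the share of all genes with such an order was not counted. In bulk libraries, fewer cells of a type and less RNA per cell cannot be told apart.

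The P2X channels P2rx4 and P2rx7 showed no called difference in any pair of libraries. P2rx4, which macrophages hold largely in lysosomal membranes, was the most abundant of the 9 genes in every library. In wild-type cells its level was 207.6 FPKM before and 254.8 FPKM after IL-4, and in TIF1a-KO cells 236.8 FPKM before and 262.8 FPKM after. P2rx4 made up between 74.1% and 77.6% of the summed FPKM of the 4 P2 receptors among the 9 genes. The log2 ratio of IL-4 to untreated was 0.30 ± 0.02 (SE, counting error) for wild-type cells and 0.15 ± 0.02 for TIF1a-KO cells, and neither passed 1.5-fold.

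P2rx7, the channel through which high ATP triggers the NLRP3 inflammasome, had a level of 16.9 FPKM in wild-type cells before IL-4 and 20.6 FPKM after. TIF1a-KO cells stood at 22.4 FPKM before and 29.4 FPKM after. Both knockout libraries were above both wild-type libraries, and within each genotype the IL-4 library was the higher one. On the log2 scale the knockout exceeded the wild-type by 0.41 ± 0.06 in untreated cells (adjusted p = 1.5e-10, Fisher's exact test). After IL-4 the ratio was 0.51 ± 0.06 (adjusted p = 1.3e-18 by the same test), and both were under 1.5-fold. P2rx7 has transcripts of 4620 to 4760 bases on average, and long transcripts were higher in the IL-4-treated knockout library than in its wild-type counterpart. With the trend over transcript length removed the 2 ratios were 0.40 and 0.35. The log2 ratio of IL-4 to untreated was 0.29 ± 0.07 for wild-type and 0.39 ± 0.06 for TIF1a-KO cells. With the trend removed these IL-4 ratios were 0.47 and 0.42, so which genotype had the larger one depended on the trend. P2rx7 exists as splice variants, of which 5 transcripts were counted together here. It lies on chromosome 5 from 122643927 to 122692336 (GRCm38), and P2rx4 follows 15181 bases downstream on the same strand. For P2rx4 the knockout to wild-type ratio was 0.19 ± 0.03 in untreated and 0.04 ± 0.02 in treated cells. The level of P2rx4 was 12.3 times that of P2rx7 in the untreated wild-type library and 8.94 times in the IL-4-treated knockout library.

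**Figure D1:**
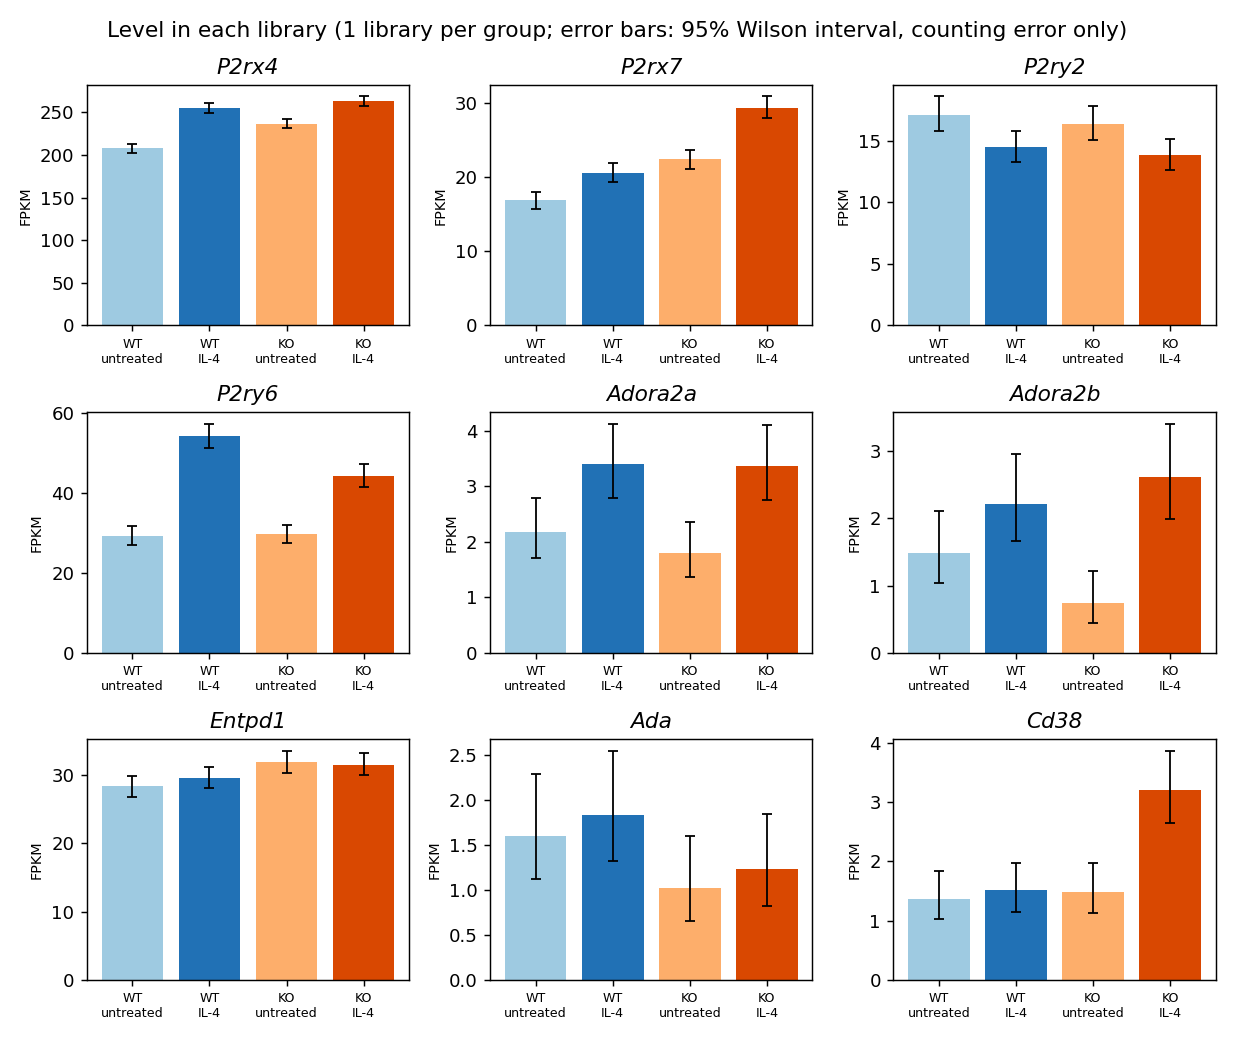
Level of each of the 9 genes (y axis, FPKM, from 0) in the 4 libraries (x axis; WT, wild-type; KO, TIF1a-KO). Bars are single libraries and error bars are 95% Wilson intervals of the read share, carried over to FPKM and covering counting error only. P2ry6 stands higher in both IL-4 libraries (54.1 and 44.3 FPKM), P2rx7 in both knockout libraries (22.4 and 29.4 FPKM), and Cd38 in the IL-4-treated knockout library alone (3.21 FPKM).

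The P2Y receptors P2ry2 and P2ry6 differed in their response to IL-4. P2ry6, the receptor for UDP, went from 29.2 FPKM in the wild-type nontreat library to 54.1 FPKM after IL-4, while TIF1a-KO cells gave 29.6 FPKM before and 44.3 FPKM after. The untreated libraries were alike and both IL-4 libraries lay above them. P2ry6 rose with IL-4 in the wild-type (log2 ratio 0.89 ± 0.07, 1.85-fold, adjusted p = 2.2e-35 by Fisher's exact test). In the knockout the ratio of 0.58 ± 0.07 (adjusted p = 7.2e-14) fell just short of the fold threshold, at 1.49-fold. P2ry2, which responds to ATP and UTP, measured 17.1 FPKM before and 14.5 FPKM after IL-4 in wild-type cells, compared with 16.3 FPKM before and 13.8 FPKM after in TIF1a-KO cells. Its log2 ratio was -0.24 ± 0.09 for wild-type and -0.24 ± 0.09 for TIF1a-KO cells, lower with IL-4 in both genotypes and under 1.5-fold. P2ry6 and P2ry2 lie next to each other on chromosome 7, on the same strand and 21069 bases apart. The level of P2ry6 relative to P2ry2 was 1.71 and 1.81 in the untreated wild-type and knockout libraries, and 3.74 and 3.20 in the IL-4 libraries.

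The adenosine receptors Adora2a and Adora2b were expressed at a low level, and IL-4 gave a called increase of Adora2a in both genotypes and of Adora2b in the knockout. Adora2a, a receptor of high adenosine affinity, had 2.18 FPKM before and 3.40 FPKM after IL-4 in wild-type cells, and 1.80 FPKM before and 3.37 FPKM after in TIF1a-KO cells. Its expected reads numbered 63, 100, 52 and 97 in that order. Adora2a rose with IL-4 in the wild-type (log2 ratio 0.62 ± 0.23, adjusted p = 0.021 by Fisher's exact test) and in the knockout (0.87 ± 0.25, adjusted p = 0.0014). The wild-type ratio was close to the threshold, and at a pseudocount of 1 it was 0.47 and no longer called.

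Adora2b, a receptor of lower adenosine affinity, had 1.48 FPKM before and 2.22 FPKM after IL-4 in wild-type cells, and 0.74 FPKM before and 2.61 FPKM after in TIF1a-KO cells. Its reads numbered 30, 46, 15 and 53. The lowest value was that of the untreated knockout and the highest that of the IL-4-treated knockout. Adora2b rose with IL-4 in the knockout (log2 ratio 1.69 ± 0.42, adjusted p = 2.2e-05 by Fisher's exact test), while the wild-type ratio was 0.55 ± 0.34 (adjusted p = 0.20). No difference between the genotypes was detectable at this depth, with log2 ratios of -0.91 ± 0.45 in untreated cells (adjusted p = 0.25) and 0.22 ± 0.29 after treatment (adjusted p = 0.73). Some markers of stromal cells also differed between the knockout libraries. The summed level of 5 fibroblast markers was 20.9 FPKM in the untreated knockout against 36.4 to 42.0 FPKM in the other libraries. The summed level of 5 mesothelial markers was 2.63 FPKM there against 3.40 to 5.22 FPKM. Of these lists, 4 fibroblast markers and all 5 mesothelial markers were listed in every library. Between the knockout libraries Col1a1 (4.81 to 15.4 FPKM), Col1a2 (5.53 to 12.8 FPKM) and Krt19 (0.69 to 1.79 FPKM) were called higher with IL-4. Dcn (7.93 and 8.94 FPKM) was not called, and Wt1 (0.90 and 0.67 FPKM) and Upk3b (0.58 and 0.13 FPKM) had lower values with IL-4, Upk3b being called lower with the length trend removed. The part of stromal cells in the Adora2b ratio was not tested.

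Of the enzymes, Entpd1 and Ada showed no called difference and Cd38 was raised in 1 library. Entpd1 (CD39) stayed between 28.4 FPKM (wild-type nontreat) and 31.9 FPKM (TIF1a-KO nontreat), with the IL-4 libraries of the genotypes at 29.6 and 31.5 FPKM. Its log2 IL-4 ratio was 0.06 ± 0.06 for wild-type and -0.02 ± 0.05 for TIF1a-KO cells. The knockout to wild-type ratio was 0.17 ± 0.05 in untreated cells (adjusted p = 0.030, Fisher's exact test) and 0.09 ± 0.05 after IL-4 (adjusted p = 0.28). Both were under 1.5-fold. Ada had 1.60 and 1.83 FPKM in wild-type cells before and after IL-4 and 1.02 and 1.23 FPKM in TIF1a-KO cells, on 30, 35, 19 and 23 reads. Both knockout values were below both wild-type values, but the log2 ratios of -0.60 ± 0.42 in untreated cells (adjusted p = 0.55, Fisher's exact test) and -0.54 ± 0.38 after treatment (adjusted p = 0.38) were not distinguishable from 0 at this depth.

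Cd38 had 1.36 FPKM before and 1.51 FPKM after IL-4 in wild-type cells, and 1.49 FPKM before and 3.21 FPKM after in TIF1a-KO cells. Its expected reads were 45.5, 51.4, 49.9 and 107.2 in that order, which are not whole because some reads also matched other genes. The first 3 libraries were close to each other and the IL-4-treated knockout lay above them. Cd38 rose with IL-4 in the knockout (log2 ratio 1.06 ± 0.25, adjusted p = 3.8e-05 by Fisher's exact test) and was at 0.14 ± 0.29 in the wild-type. With IL-4 it was higher in the knockout than in the wild-type by 1.04 ± 0.24 (adjusted p = 5.8e-05), and the ratio was 1.03 with the length trend removed. B cells also carry CD38. The summed level of 5 B cell markers, 4 of them listed in every library, was 6.52, 5.77, 5.07 and 4.23 FPKM across these libraries, so it was lowest where Cd38 was highest. No single B cell marker was called between the knockout libraries, where Cd79a was at 2.07 and 1.17 FPKM and Cd79b at 1.69 and 1.99 FPKM. The part of B cells in the Cd38 ratio was not tested.

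**Figure D2:**
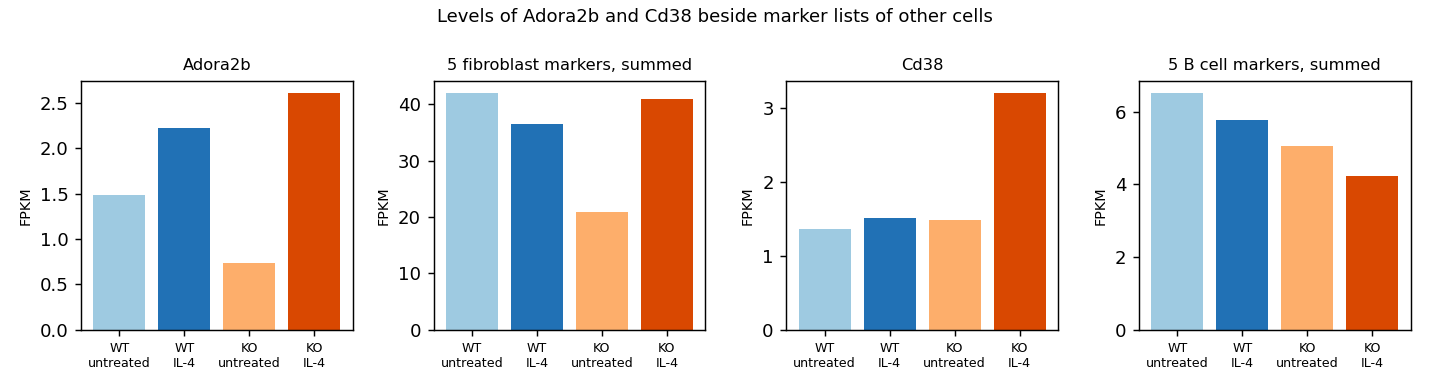
Levels (y axes, FPKM, from 0) of Adora2b beside the sum of 5 fibroblast markers, and of Cd38 beside the sum of 5 B cell markers, in the 4 libraries (x axes; 1 library per bar, no error drawn). Adora2b and the fibroblast sum are both lowest in the untreated knockout (0.74 and 20.9 FPKM), and the B cell sum is lowest (4.23 FPKM) in the library with the highest Cd38. In the wild-type, Adora2b is higher with IL-4 (1.48 and 2.22 FPKM) and the fibroblast sum is lower (42.0 and 36.4 FPKM).

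The sequences before the transcription starts of Cd38 and Adora2b, the 2 genes that more than doubled with IL-4 in the knockout, are shown because they differ in base composition. Both run 5′ to 3′ over the 250 bases before the start, from RefSeq on GRCm38.p6, and CG dinucleotides are in capitals.
Cd38, chr5:43868559-43868808, plus strand: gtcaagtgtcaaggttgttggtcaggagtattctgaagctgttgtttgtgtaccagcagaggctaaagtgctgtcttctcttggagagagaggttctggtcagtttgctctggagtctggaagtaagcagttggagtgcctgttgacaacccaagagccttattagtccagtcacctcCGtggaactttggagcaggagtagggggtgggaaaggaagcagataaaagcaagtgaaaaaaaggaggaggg
Adora2b, chr11:62248734-62248983, plus strand: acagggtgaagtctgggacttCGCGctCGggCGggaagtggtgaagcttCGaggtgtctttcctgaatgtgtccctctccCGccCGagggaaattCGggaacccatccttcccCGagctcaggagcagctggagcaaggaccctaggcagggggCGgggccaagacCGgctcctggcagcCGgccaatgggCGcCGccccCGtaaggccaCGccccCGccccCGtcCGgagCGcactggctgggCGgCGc
The Cd38 window held 1 CG dinucleotide and 48.8% G and C, whereas the Adora2b window held 22 CG dinucleotides and 69.6% G and C. Over all 32851 windows of this length the medians were 6 and 52.4%. Of these windows 18.8% held 1 or fewer CG dinucleotides and 14.8% held 22 or more. Among the other genes the windows held 21 and 26 (P2ry2), 18 and 8 (Entpd1), 14 (Ada), 13 (P2rx4) and 6 and 4 (P2rx7). A window rich in CG was thus not particular to Adora2b. Promoter windows matched 7 of the 9 genes, some with several starts, giving 10 windows. Because IL-4 acts through Stat6, these were searched for TTC and GAA with any 4 bases between them, the spacing that Stat6 prefers, and with any 3 bases between them, the spacing of other STAT proteins. Both letter patterns read alike on either strand. No window of the 7 genes held the wider spacing, which occurred in 5.85% of all windows, and 10 windows are too few to set against that share. P2ry6 and Adora2a, the 2 genes called higher with IL-4 in the wild-type, had no window and were not searched. The narrower spacing occurred once, as TTCCGGGAA on chromosome 2 from 163750321 to 163750329, 90 to 82 bases before the start of Ada, and in 7.02% of all windows.

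Counted over the 9 genes, 2 were called higher with IL-4 in the wild-type (P2ry6 and Adora2a) and 0 lower, where 4.91% of 15593 genes tested were called higher and 7.88% lower (12.8% in all). In the knockout 3 were called higher (Adora2a, Adora2b and Cd38) and 0 lower, against 5.29% of 15738 genes called higher and 4.03% lower (9.32% in all). The median log2 IL-4 ratio of the 9 genes was 0.29 in the wild-type, beside -0.03 over all genes, and 0.39 in the knockout, beside 0. Between the genotypes 0 of the 9 genes were called without IL-4, where 1.58% of genes were called in either direction, 0.839% higher and 0.742% lower. At an unadjusted p under 0.05 in Fisher's exact test 4 of the 9 differed there, beside 16.4% of all genes tested. With IL-4, 1 gene (Cd38) was called higher in the knockout, against 3.05% of 15573 genes called higher and 0.764% lower (3.81% in all). The 4 comparisons share libraries, since each library enters 2 of them. Their shares and medians over all genes include genes under 1 FPKM, whereas all 9 genes had a mean of at least 1 FPKM. The shares and medians are therefore not matched to the 9 genes. When a biological coefficient of variation of 0.2 between samples was assumed instead, in edgeR's exact test, 0 of the 9 genes passed in any of the 4 comparisons. The smallest adjusted p among them was then 0.10, for the IL-4 ratio of Adora2b in the knockout.

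**Figure D3:**
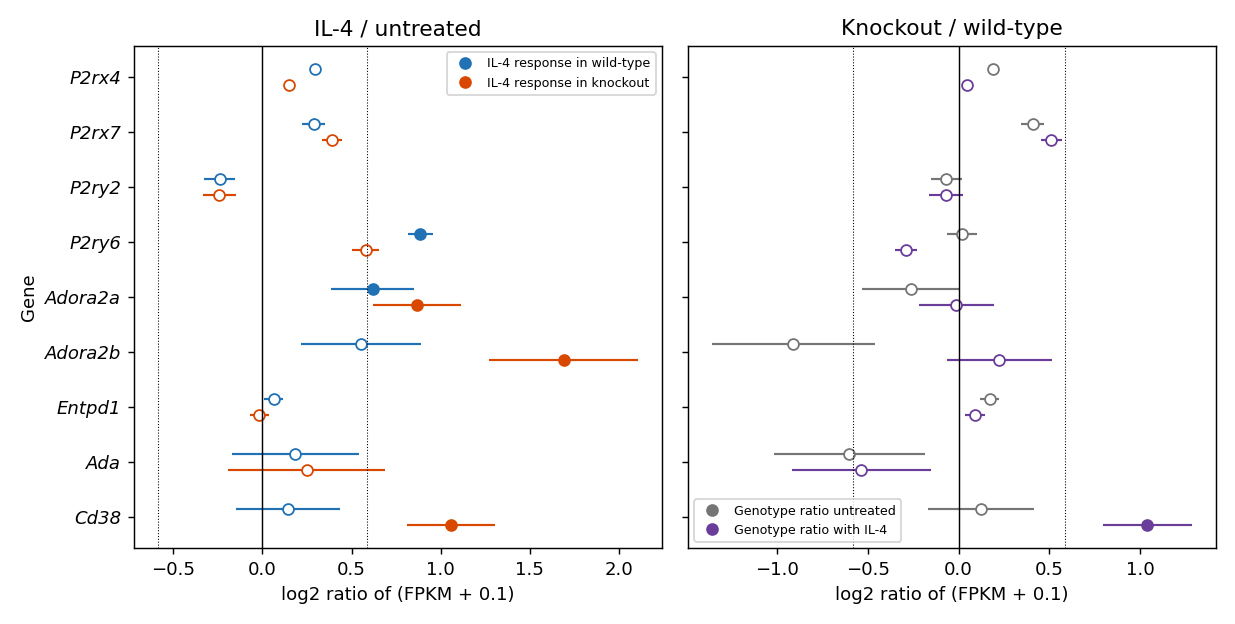
Log2 ratios of (FPKM + 0.1) for the 9 genes (y axis), IL-4 over untreated on the left and knockout over wild-type on the right. Points are ratios of 2 single libraries, horizontal lines are ± 1 SE of counting, filled points are called and dotted lines mark 1.5-fold. The filled points are P2ry6 and Adora2a in the wild-type, Adora2a, Adora2b and Cd38 in the knockout, and Cd38 between the IL-4-treated genotypes.

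To use all 4 libraries at once, genotype and treatment were fitted as additive effects, with 1 residual degree of freedom left. Of the 9 genes, 4 had a higher level with IL-4 in the quasi-likelihood test of edgeR, where 12% of 11791 genes were higher and 13.3% lower (25.3% in all). These were P2ry6 (log2 effect 0.75, adjusted p = 0.00011), Adora2a (0.77, adjusted p = 0.010), P2rx7 (0.34, adjusted p = 0.013) and Adora2b (1.14, adjusted p = 0.017). By DESeq2 P2ry6 alone passed. For Cd38 the IL-4 effect of 0.68 had an adjusted p of 0.061 in edgeR. A genotype effect was called for P2rx7 (0.49, adjusted p = 0.012 in edgeR), higher in the knockout, where 1.29% of genes were higher and 0.373% lower (1.66% in all). That call was lost in DESeq2 and when every gene with a read was tested. The fit takes the IL-4 response to be the same in both genotypes.

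Whether the IL-4 response differed between the genotypes was tested on log2 counts against counting error, with adjustment over 10532 genes. No gene of the 9 passed both the adjusted p and 1.5-fold, which 2.87% of genes did in either direction (2.37% with the larger response in the knockout and 0.494% with the smaller), and 4 of the 9 had an unadjusted p under 0.05, as did 24.5% of all genes. At an adjusted p under 0.05 with no fold required, 2 of the 9 (P2rx4 and P2ry6) and 14.1% of all genes passed. The response of Cd38 was larger in the knockout by 0.95 (95% counting interval, 0.20 to 1.70, adjusted p = 0.079) and that of Adora2b by 1.21 (0.16 to 2.26, adjusted p = 0.12). Although Cd38 and Adora2b were called in the knockout and not in the wild-type, their responses were thus not shown to differ. The difference, knockout minus wild-type, was -0.15 for P2rx4 (-0.21 to -0.08, adjusted p = 0.00037) and -0.31 for P2ry6 (-0.51 to -0.11, adjusted p = 0.024), both under 1.5-fold. For P2rx7 (0.07, -0.10 to 0.24) and P2ry2 (-0.03, -0.28 to 0.22) the intervals included 0.

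The other genes of nucleotide signalling and metabolism were examined with lists of 75 genes, of which 72 were listed in some library and 43 had a mean of at least 1 FPKM. The lists were written with earlier results of these data known. IL-4 gave 8 higher and 3 lower calls among these 43 in wild-type cells, and 7 and 3 in TIF1a-KO cells. Over all genes tested, 4.91% were called higher and 7.88% lower in wild-type cells, and 5.29% and 4.03% in TIF1a-KO cells. The median log2 IL-4 ratio of the 43 genes was -0.01 in each genotype. Between the genotypes 2 of the 43 were called higher without IL-4 and 1 with IL-4, and 0 were called lower. Over all genes tested 0.839% and 3.05% were called higher. These shares include genes under 1 FPKM and are not matched to the 43.

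Among the other receptors, none of the 5 further P2X genes and neither of the 2 further adenosine receptor genes reached a mean of 1 FPKM, and 3 of 7 further P2Y genes did. P2ry1, a receptor for ADP, rose with IL-4 from 3.33 to 8.78 FPKM (wild-type, log2 ratio 1.37) and from 3.82 to 10.3 FPKM (TIF1a-KO, 1.40). P2ry14, the UDP-glucose receptor, which is named here after its values were seen, rose with IL-4 in the wild-type from 5.12 to 9.16 FPKM. In the untreated knockout it was already at 9.21 FPKM, higher than in the untreated wild-type by a log2 ratio of 0.83, and it was at 11.7 FPKM with IL-4. P2ry10b, likewise named after its values were seen, was lower with IL-4 in both genotypes without a call. It is counted as a P2Y gene by its name, and whether it responds to nucleotides was not examined. It went from 8.03 to 5.37 FPKM in wild-type cells (log2 ratio -0.57) and from 6.94 to 5.15 FPKM in TIF1a-KO cells (-0.42). Adora3, also named after its values were seen, was under the level minimum at 0.72, 0.45, 1.07 and 0.15 FPKM, and was called lower with IL-4 in the knockout (log2 ratio -2.23).

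On the cell surface, downstream of CD39, Nt5e (CD73) was near the limit of detection at 0.07 to 0.13 FPKM in the 4 libraries. Of 10 further ecto-enzymes 2 had a mean of at least 1 FPKM, the pyrophosphatase Enpp1 and the CD38 relative Bst1, and neither was called in any of the 4 comparisons. With the length trend removed Enpp1 was called higher with IL-4 in the wild-type, at a log2 ratio of 0.64. Bst1 was listed at 14.7 to 20.3 FPKM, above Cd38 in every library. None of the 4 intracellular NTPDases was called. These lists are too short to set against the shares over all genes. Of the release and transport genes, 5 of 9 had a mean of at least 1 FPKM. Slc28a2, a concentrative transporter that takes up purine nucleosides, was called lower after treatment in both genotypes, at 4.53 FPKM against 11.2 before IL-4 in wild-type cells and 4.97 against 11.8 FPKM in TIF1a-KO cells. The ATP-release channel gene Panx1 stayed between 5.32 and 6.35 FPKM and was not called.

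Purine salvage enzymes, the longest of the lists, held most of the genes called with IL-4. Of 18 genes 14 had a mean of at least 1 FPKM, and IL-4 gave 5 higher and 2 lower calls in each genotype. Over all genes tested, 4.91% were called higher and 7.88% lower in wild-type cells, and 5.29% and 4.03% in TIF1a-KO cells, shares not matched for level. Gda, which deaminates guanine, rose from 11.6 to 63.2 FPKM in wild-type cells, and in TIF1a-KO cells from 13.1 to 72.6 FPKM. Dck, which phosphorylates deoxynucleosides, reached 9.68 FPKM from 4.74 in wild-type cells and 9.09 FPKM from 4.39 in TIF1a-KO cells. The AMP deaminase genes Ampd3 and Ampd2 moved in opposite directions. Ampd3 fell to 5.38 FPKM from 20.8 in wild-type cells and to 6.04 FPKM from 17.3 in TIF1a-KO cells. Ampd2 rose to 17.7 FPKM from 10.8 and to 20.8 FPKM from 8.90. Samhd1, named after its values were seen, was also called higher (log2 ratios 0.63 and 0.60), and Pnp2 was called lower (-1.21 and -0.74). Pnp2 was also higher in the knockout, by 0.68 in untreated and 1.14 in treated cells, but it shares reads with its near-identical neighbour Pnp and its values are uncertain.

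Genes of NAD metabolism, the substrate side of CD38, showed 0 called genes among 9 with a mean of at least 1 FPKM in each of the 4 comparisons. Over all genes tested, IL-4 gave calls for 12.8% in wild-type and 9.32% in TIF1a-KO cells. Between the genotypes 1.58% were called without and 3.81% with IL-4. A list of 9 genes is too short to set against these shares. Nampt, which makes the NAD precursor, was listed at 49.7 to 60.7 FPKM. Of 8 effectors of P2X7 signalling 6 reached 1 FPKM. The inflammasome adaptor Pycard (ASC) rose with IL-4 to 46.9 FPKM from 27.7 in wild-type cells and to 45.8 FPKM from 26.3 in TIF1a-KO cells. Casp1 (45.1 to 47.8 FPKM) and Gsdmd (29.6 to 30.9 FPKM) were not called. Nlrp3, which had a mean of 0.71 FPKM and is named after its values were seen, fell with IL-4 to 0.18 FPKM from 1.18 in wild-type cells and to 0.22 FPKM from 1.25 in TIF1a-KO cells.

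**Figure D4:**
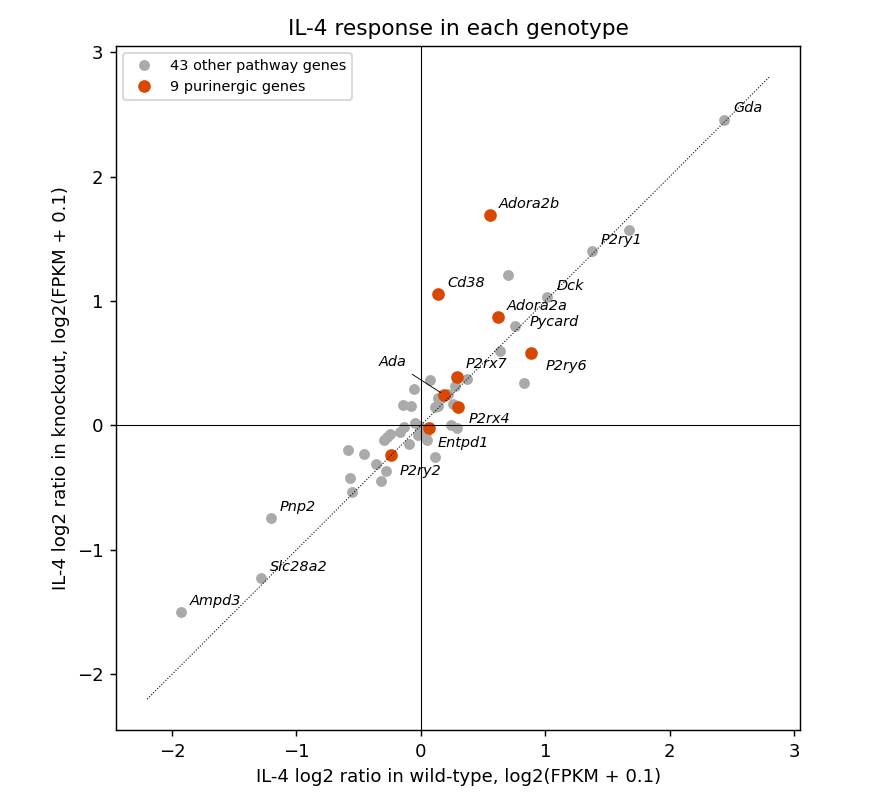
Log2 IL-4 ratio of (FPKM + 0.1) in the wild-type (x axis) and the knockout (y axis) for the 9 genes and the 43 other pathway genes that reached a mean of 1 FPKM. Each point is 1 gene and the dotted line marks equal ratios. Gda, P2ry1, Dck and Pycard lie near the line, while Cd38 (0.14 and 1.06) and Adora2b (0.55 and 1.69) lie above it and P2ry6 (0.89 and 0.58) below.

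The genes closest in pattern to the 9 were sought for Adora2b and P2ry2, which had the highest and the lowest mean log2 IL-4 ratio of the 9 (1.12 and -0.24). Likeness was the Euclidean distance between centred log2(FPKM + 0.1) values over the 4 libraries, searched over 7459 genes whose mean was 5 FPKM or more. For Adora2b the closest were Igf1, Gpr65 and Ampd2, at distances of 0.45 to 0.48. Igf1 was listed at 16.3, 27.6, 12.1 and 25.8 FPKM in wild-type cells before and after IL-4 and then TIF1a-KO cells before and after it. For P2ry2 the closest were Map1s, Serinc3 and Mtmr14, at distances of 0.03 to 0.04. Map1s was listed at 19.5, 16.3, 18.3 and 15.9 FPKM in the same order.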

How the data were processed

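RNA was sequenced from 4 libraries, 1 per group. According to the labels and the methods of the study, the authors aligned reads with Bowtie to GRCm38 (mm10) and quantified genes with RSEM, with versions not given in the sources used here. The deposited tables hold, per gene, the expected count, the FPKM value and the transcript length, as the authors' RSEM run gave them. Reads shared between genes are divided by estimate, so near-identical genes are uncertain.

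NCBI gene IDs were matched to symbols for 16365 of 16403 genes, and a gene not listed in a library was taken as 0. The members and the gene lists were chosen with earlier results of these data known. Levels and ratios are on the log2(FPKM + 0.1) scale. Pairs of libraries were compared by Fisher's exact test on rounded expected counts (two-sided, scipy 1.17.1, Benjamini-Hochberg over all genes), which measures counting error only. Additive effects were fitted by edgeR 4.0.16 (quasi-likelihood), with DESeq2 1.42.0 and limma 3.58.1 as alternatives, and differences of responses were tested on log2(count + 0.5). A lowess trend of log2 ratio over transcript length was removed as an alternative. Other alternatives were pseudocounts of 0.01 and 1, a fold of 2, assumed biological coefficients of variation of 0.2 and 0.4, other normalizations and filters. The procedures were run on simulated counts with known changes. These held counting error only, so they could not show how the tests behave with spread between samples. The changed genes also had more reads on average than Ada, Adora2b, Cd38 and Adora2a. Other pathway genes were named when called in both IL-4 pairs or both genotype pairs in 1 direction at a mean of at least 1 FPKM, at most 4 per list and contrast. The 3 nearest genes were named for the members with the highest and lowest mean IL-4 ratio. A gene that the first of these rules names is not reported here.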

Additional observations from a re-analysis of the deposited data

Results flagged for a closer look

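The IL-4 response differed between the genotypes for 2 of the 9 genes by the test of the difference itself, against counting error, at an adjusted p alone, which 14.1% of the 10532 genes tested also passed. For P2rx4 the difference of log2 responses, knockout minus wild-type, was -0.15 (adjusted p = 0.00037). For P2ry6 it was -0.31 (adjusted p = 0.024), and -0.27 with an adjusted p of 0.10 once the length trend was removed. Both differences were under 1.5-fold, and with 1 library per group the spread between samples is unknown.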

How the results depend on the processing

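No paired analysis was possible because each group holds 1 library. Of the values for single genes, 454 kept their direction and side of the threshold, 23 lost a call, 6 gained one and 3 changed sign. For pairs of libraries, the fold of 2, the filter and the assumed coefficients of variation reused the same ratio, so its sign could not change. Most of the values were not called at the main setting and had no call to lose, so the 454 do not measure robustness. The 3 sign changes came with the length trend removed: the genotype ratio with IL-4 of Entpd1 (-0.022) and Adora2a (0.012) and the difference of responses of P2rx7 (-0.080). For IL-4 in the wild-type 1 of the 9 genes was called at a pseudocount of 1, and 0 at a fold of 2 or at an assumed coefficient of variation of 0.2 or 0.4. In the knockout, and between the IL-4-treated genotypes, 0 were called at either coefficient. Over all genes, the fold of 2 left 861 (IL-4, wild-type), 711 (IL-4, knockout), 128 (genotype, untreated) and 171 (genotype, IL-4). In the same order a coefficient of 0.2 left 258, 272, 15 and 21, and 0.4 left 45, 33, 7 and 11. A pseudocount of 1 left 156 and 322 for the genotype comparisons without and with IL-4, and removing the length trend left 315 with IL-4 and 102 differences of response. In the additive fit the IL-4 effect was called for 1 of the 9 genes by DESeq2, 2 with every gene with a read tested and 7 with the length trend removed. Over all genes these settings gave 1223, 1675 and 3907. The genotype effect was called for 0, 0 and 2 of the 9 genes under these settings and for 65, 24 and 624 genes in all. It was called for 494 genes with upper-quartile normalization and 393 with limma. The cause of these shifts was not tested. Low counts limit Ada, Adora2b, Cd38 and Adora2a.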
